A study of Mus musculus with 12 samples.

Results

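The 8 genes described here are regulators and cytokines of the T helper 2 (Th2) programme: the transcription factors Gata3, Maf, Nfil3 and Stat6, the receptor chain Il4ra, and the cytokines Il4, Il5 and Il13. They were chosen by symbol, and all 8 were found among the 25189 genes of the count table. They were read across splenic regulatory T (Treg) cells of 3 kinds, which differ in Foxp3, the lineage factor of Treg cells, and in Rictor, the defining subunit of the kinase complex mTORC2.

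In Th2 cells, IL-4 binds a receptor that contains the chain encoded by Il4ra, Janus kinases attached to the receptor phosphorylate STAT6, and STAT6 enters the nucleus and raises Gata3. GATA-3 is the master factor of the lineage and acts on the shared locus of Il4, Il13 and Il5, while c-Maf, encoded by Maf, is an activator of Il4 and NFIL3 is a repressor of the bZIP family that also binds clock genes. Treg cells carry GATA-3 too, and Treg cells with impaired Foxp3 are known to be able to make type 2 cytokines.

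The cells were double-sorted from the spleens of female mice aged 4 weeks, as CD4+ cells positive for RFP or for YFP, with 4 libraries in each group. Ric cells lacked both Foxp3 and Rictor (Foxp3ΔEGFPiCre RictorΔ/Δ), deltaIcre cells lacked Foxp3 (Foxp3ΔEGFPiCre), and WT cells had a working Foxp3 allele tagged with RFP (Foxp3RFP). The mice named are Foxp3ΔEGFPiCre/+ RictorΔ/Δ R26YFP and Foxp3ΔEGFPiCre/RFP R26YFP, and only those with RictorΔ/Δ carry the Rictor deletion. Which mice gave the deltaIcre and which the WT cells is not spelled out. Of the mice named, only those with Foxp3ΔEGFPiCre/RFP carry RFP and lack the Rictor deletion. If they gave both, each comparison with Ric also differs in the host mouse and in its other Foxp3 allele. The Cre of these mice is expressed from the disrupted Foxp3 allele itself, and the R26YFP reporter marks cells in which Cre has acted. Foxp3 lies on the X chromosome, so heterozygous females also hold Treg cells with working Foxp3, and the deficient cells were taken from hosts that have them. No label ties a library to a mouse. The p-values below therefore measure the spread between these samples, which may be technical in part. In bulk samples such as these, fewer cells of a type and less RNA per cell cannot be told apart.

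Between 15769737 and 26114044 reads per library fell in genes. Levels are CPM (read counts scaled to a common library size) on library sizes scaled by the trimmed mean of M-values (TMM), and calls are edgeR quasi-likelihood tests with a Benjamini-Hochberg adjusted p under 0.05 over 13196 genes. Foxp3 averaged 102 ± 13.7 CPM in Ric, 118 ± 22.8 CPM in deltaIcre and 633 ± 75.8 CPM in WT libraries (SD, n = 4 each). Rictor averaged 141 ± 12.6 CPM in Ric, 189 ± 31.2 CPM in deltaIcre and 148 ± 14.4 CPM in WT libraries. Counts over a whole gene do not check the deletion of part of it. deltaIcre libraries 1 and 3 stood apart from the rest on principal components 2 and 3, so results that rest on them are given with and without them. Reads outside genes took 5.004 ± 0.366% in Ric, 7.83 ± 1.51% in deltaIcre and 8.18 ± 0.507% in WT libraries. All 9 markers of T cells had reads in every group. Their summed level ran from 5688 to 6371 CPM in Ric, 5273 to 6575 CPM in deltaIcre and 6198 to 6644 CPM in WT libraries. Single markers moved apart under these sums. In Ric over deltaIcre, Cd3d, Cd3g and Il2ra were called higher and Cd4, Trac and Cd28 lower. In deltaIcre over WT, Cd4 and Cd28 were called higher and Il2ra and Ikzf2 lower. In Ric over WT, Cd3d was called higher and Cd28, Il2ra and Ikzf2 lower.

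Of the 8 genes, 6 had enough reads to be tested, and Il5 and Il13 did not. In Ric against deltaIcre libraries 2 of the 6 changed, Il4 and Gata3, both higher in Ric, where 27.2% of all tested genes changed. In deltaIcre against WT libraries 2 of the 6 changed, Gata3, which was lower, and Maf, which was higher, where 13.7% of all tested genes changed (6.99% higher and 6.74% lower). In Ric against WT libraries Il4 alone changed, where 32.6% of all tested genes changed. With so few genes these shares cannot be set apart from the background. The median log2 fold change of the 6 was 0.12 in Ric against deltaIcre, 0.20 in deltaIcre against WT and 0.19 in Ric against WT, beside medians of -0.02, 0.00 and -0.03 over all tested genes. These comparisons are not independent: any pair of them shares the libraries of one group.

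**Figure D1:**
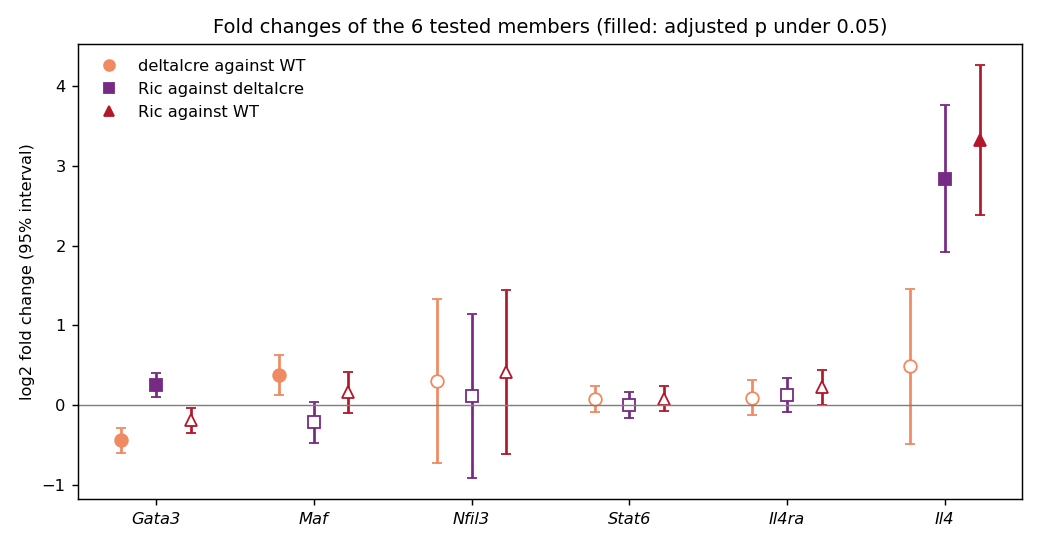
Log2 fold change of the 6 tested genes (vertical axis; first-named group over the second) in each comparison, with 95% intervals; filled symbols passed an adjusted p of 0.05. Il4 stands at 2.84 in Ric against deltaIcre and 3.32 in Ric against WT, while every interval of Stat6 includes 0.

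Il4, which encodes the cytokine that both starts and is made by the Th2 response, was the gene of the set with the largest fold. Its level was 4.95, 8.52, 9.70 and 14.6 CPM in Ric libraries 2, 3, 4 and 5, from 100, 189, 207 and 267 reads. It was 0.379, 1.35, 1.34 and 2.12 CPM in deltaIcre libraries 1, 3, 4 and 5, from 7, 22, 26 and 49 reads. It was 0.681, 0.554, 0.955 and 1.47 CPM in WT libraries 1, 3, 4 and 5, from 12, 9, 26 and 35 reads. Every Ric library lay above every library of the other groups, and the deltaIcre and WT libraries overlapped.

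Il4 rose 7.15-fold in Ric over deltaIcre libraries, a log2 fold change of 2.84 with a standard error of 0.43 (edgeR adjusted p = 0.000548). Over WT libraries it rose 10.01-fold, a log2 fold change of 3.32 with a standard error of 0.44 (edgeR adjusted p = 6.21e-05). Leaving out 1 library at a time moved the first value between 2.54 and 3.21 and the second between 3.04 and 3.65. In deltaIcre against WT libraries the log2 fold change was 0.48, with a 95% interval of -0.49 to 1.46 (edgeR adjusted p = 0.574). A change of either sign within that interval was not excluded. Trim12a, Nifk and Uqcrc2 had patterns most like that of Il4, each with a Pearson r of log2 CPM of 0.98 over the 12 libraries, among 8028 genes. This is a description of libraries that share their group differences. The 4 Ric libraries spread over a wider range of CPM than either of the other groups, with Ric 2 lowest and Ric 5 highest. Relative to the mean their spread was not wider. Il4 averaged 9.44 ± 3.99 CPM in Ric, 1.30 ± 0.715 CPM in deltaIcre and 0.916 ± 0.408 CPM in WT libraries.

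Shorter genes were higher in Ric libraries as a rule: the median log2 fold change of Ric over deltaIcre was 0.25 in the shortest length class, which holds Il4 with its 1227 exonic bases, and -0.22 in the longest. Once trends in length and GC content were taken out, Il4 had a log2 fold change of 2.48 in Ric over deltaIcre libraries and 3.04 in Ric over WT libraries, and it was called in both.

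Il5, which encodes the growth factor of eosinophils, had few reads. It had 1, 10, 9 and 20 reads in Ric libraries 2, 3, 4 and 5, against 1, 0, 0 and 6 reads in deltaIcre libraries 1, 3, 4 and 5 and no read in any of the 4 WT libraries. Every Ric library had at least 1 read and no WT library had any, while the Ric and deltaIcre libraries overlapped. Against WT, the floor of 3 reads over the group stands in for 0, and on it the Ric level was 13.8-fold higher. The exact two-sided permutation test of mean CPM gave p = 0.0286, the smallest that 4 libraries against 4 can give. Ric library 5 gave 20 of the 40 Ric reads, and without it the Ric level was 8.87-fold higher on this floor. Against deltaIcre the 40 Ric reads and the 7 deltaIcre reads differed by a factor of 5.38, for which counting error alone allowed 2.38 to 14.2 at 95% confidence (exact permutation p = 0.0857, n = 4 each). The deltaIcre level was 2.56-fold higher than in WT on the same floor (exact permutation p = 0.429). Of the 7 deltaIcre reads 6 came from library 5, so 1 read remained without it. Counting intervals cover counting error only. A floor allows for it in the group at 0 alone, so the folds on a floor are not lower bounds. With no filter on low counts, edgeR over 25189 genes called Il5 in Ric against WT (adjusted p = 0.00214) and not in Ric against deltaIcre (adjusted p = 0.0993).

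Il13, which encodes a cytokine that shares a receptor chain with IL-4, had 2 reads, both in Ric library 4, and none in the other 11 libraries (exact permutation p = 1 in each comparison). Both groups of each comparison lay under the floor of 3 reads, so no fold is given, and a difference was not detectable at this depth.

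**Figure D2:**
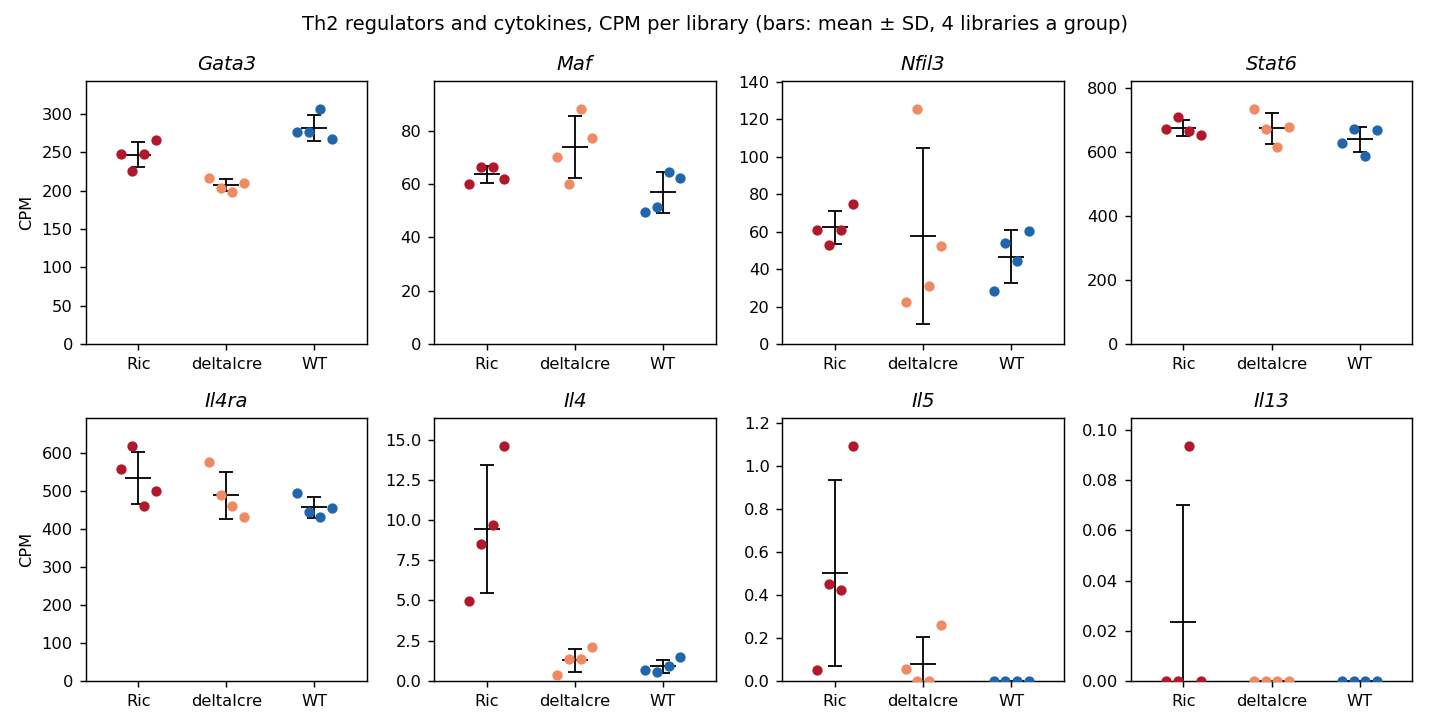
CPM of each of the 8 genes in every library (points), with the mean and SD of 4 libraries (bars), in Ric, deltaIcre and WT groups; each panel has its own axis from 0. The Il4 points of Ric, 4.95 to 14.6 CPM, lie above all others, the highest of which is 2.12 CPM, and one deltaIcre point of Nfil3 lies far above the other 3.

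The 3 cytokine genes lie together on mouse chromosome 11, where the DNA repair gene Rad50 sits between Il13 and Il5. In GRCm38 with the GENCODE M21 annotation, Il4 lies at chr11:53602982-53618669 on the minus strand, Il13 at chr11:53631324-53634702 on the minus strand, Rad50 at chr11:53649519-53707319 on the minus strand and Il5 at chr11:53720794-53725106 on the plus strand. Il4 and Il13 are 12.7 kb apart, Il13 and Rad50 14.8 kb, Rad50 and Il5 13.5 kb, and the stretch from Il4 to Il5 spans 122 kb. Introns of Rad50 are known to hold a control region of the cytokine genes.

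The windows before the starts of these 3 genes are shown as a description. They are the 250 bases before the start, 5′ to 3′ on the strand of the gene, from RefSeq on GRCm38.p6. The Il4 window is chr11:53618666-53618915 (minus strand), the Il13 window chr11:53634703-53634952 (minus strand) and the Il5 window chr11:53720544-53720793 (plus strand). Capitals mark matches to a GATA motif (AGATAA or AGATAG, likewise TGATAA or TGATAG, on either strand) and to a STAT6 motif (TTC and GAA with any 4 bases between them).
Il4: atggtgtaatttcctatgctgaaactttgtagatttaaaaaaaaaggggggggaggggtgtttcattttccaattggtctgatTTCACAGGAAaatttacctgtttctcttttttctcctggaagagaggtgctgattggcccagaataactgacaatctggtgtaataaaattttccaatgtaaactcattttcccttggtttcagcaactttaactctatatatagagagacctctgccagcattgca
Il13: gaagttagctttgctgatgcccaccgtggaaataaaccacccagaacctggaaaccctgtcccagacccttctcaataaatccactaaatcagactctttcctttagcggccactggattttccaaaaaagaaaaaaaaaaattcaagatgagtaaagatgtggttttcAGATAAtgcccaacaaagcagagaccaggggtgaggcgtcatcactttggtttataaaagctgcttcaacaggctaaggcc
Il5: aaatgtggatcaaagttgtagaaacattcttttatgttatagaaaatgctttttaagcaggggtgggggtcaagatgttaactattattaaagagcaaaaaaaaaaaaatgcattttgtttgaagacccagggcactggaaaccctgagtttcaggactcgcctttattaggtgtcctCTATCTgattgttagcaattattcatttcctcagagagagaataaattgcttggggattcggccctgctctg
The Il4 window holds a STAT6 match whose first base lies at -167 from the start, and Il13 and Il5 each hold a GATA match, at -81 and at -72, that of Il5 on the reverse strand. Counting also the 50 bases after the start, which are not shown, Il4 has a GATA match at 14, and Gata3 has one at 36. Such a window, with 250 bases before and 50 after the start, was found for 7 of the 8 genes, and Nfil3, Stat6 and Il4ra had neither motif. Il4 has 2 such windows, and only that of its outermost start is described here. Of 32851 mouse windows of the same kind, 29.8% hold a GATA match and 6.95% a STAT6 match. None of the 7 windows holds the NFIL3 motif (TTATGTAA or TTACGTAA, either strand), found in 1.06% of all windows. A MAF core, TGCTGA on either strand, is found in 4 of the 7 windows, those of Gata3, Il4, Il5 and Il13, and in 19.5% of all windows. A match describes letters and is no evidence of binding.

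Around the cytokines, the neighbours moved in different ways. Kif3a, a motor protein gene whose end lies 1.01 kb from the end of Il4, was at 20.6, 27.8, 25.9 and 20.8 CPM in Ric libraries 2 to 5, against 11.96, 13.9, 14.1 and 15.8 CPM in deltaIcre libraries and 8.17, 9.48, 8.92 and 9.60 CPM in WT libraries. The groups did not overlap, and Kif3a rose in Ric over deltaIcre by 0.77 on the log2 scale (edgeR adjusted p = 0.00162), in deltaIcre over WT by 0.62 (edgeR adjusted p = 0.00707) and in Ric over WT by 1.39 (edgeR adjusted p = 3.87e-06). Rad50 had a log2 fold change of -0.25 in Ric over deltaIcre (edgeR adjusted p = 0.0358), a call that ended under several alternatives, leaving out 1 library among them, and of -0.30 in Ric over WT (edgeR adjusted p = 0.0135), a call that ended without the low-count filter. Sept8, a septin gene beyond Kif3a, rose in Ric over WT by 1.04 (edgeR adjusted p = 0.00256) and was not called in Ric over deltaIcre (0.16, edgeR adjusted p = 0.616). It rose in deltaIcre over WT by 0.88 (edgeR adjusted p = 0.0131), a call that ended without both deltaIcre 1 and 3. The interferon factor Irf1 on the far side of Il5 changed in no comparison. The strand setting of the counting is not given in the sources used here, and whether reads past the end of Kif3a bear on Il4 was not tested.

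**Figure D3:**
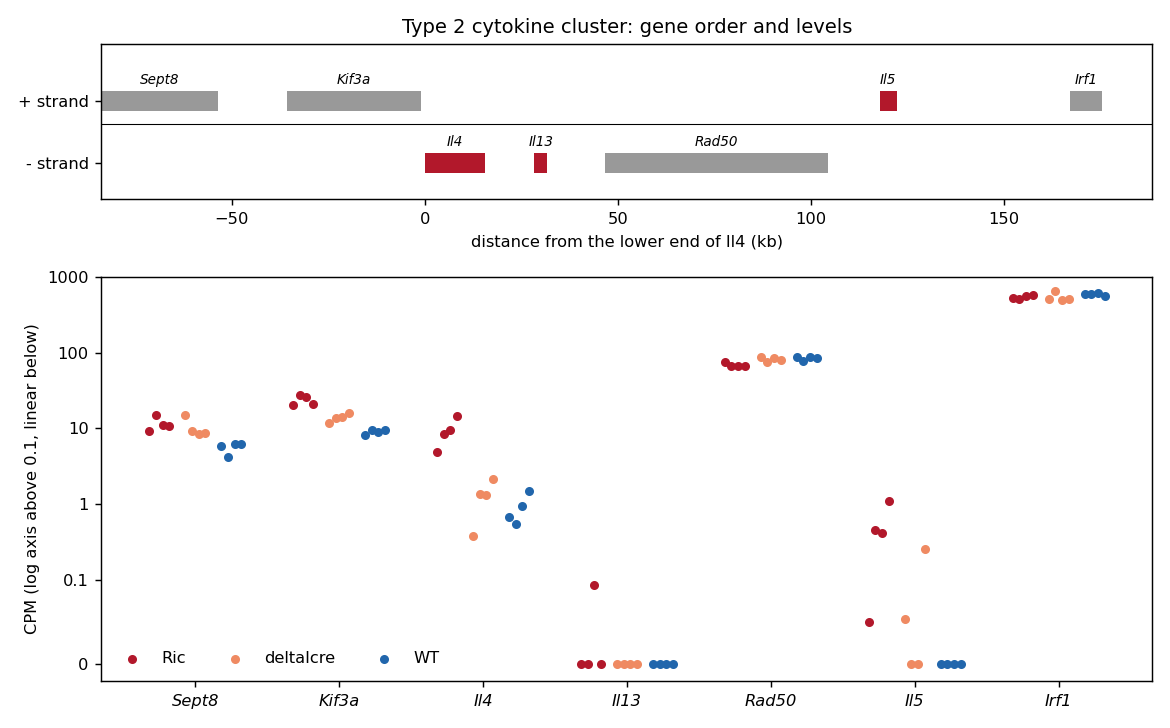
Top: the type 2 cytokine cluster, genes as bars by strand, against the distance from the lower end of Il4 in kb. Bottom: CPM per library (log axis above 0.1, linear below) in Ric, deltaIcre and WT groups; the Il4 points of Ric stand above those of the other groups, Il13 has 1 point above 0, and Irf1 overlaps between all groups.

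Markers of other cells that can make IL-4 were read beside these results. Of 10 mast cell and basophil markers 3 are in the table, Cpa3, Hdc and Kit, and the other 7 have no row there. Every gene of the table had a read in some library, and whether the absent genes had none is not known. Their summed level ran from 5.64 to 22.7 CPM in Ric, 4.60 to 6.57 CPM in deltaIcre and 2.46 to 3.35 CPM in WT libraries. Kit, which encodes the stem cell factor receptor, averaged 8.18 ± 8.26 CPM in Ric, 1.39 ± 0.901 CPM in deltaIcre and 0.976 ± 0.366 CPM in WT libraries. It rose in Ric over deltaIcre (log2 fold change 2.56, edgeR adjusted p = 0.0157), although these groups overlapped. Ric library 3 held 438 of the 705 Kit reads in Ric, and without it the log2 fold change was 1.65 and the call ended (edgeR adjusted p = 0.051). Over WT, Kit rose in Ric by 3.06 on the log2 scale (edgeR adjusted p = 0.00533), and these groups did not overlap. Without Ric library 3 that rise was 2.15 and was still called (edgeR adjusted p = 0.0137). Kit was not called in deltaIcre over WT. Cpa3, a mast cell protease gene, averaged 0.633 CPM in Ric, 0.383 CPM in deltaIcre and 0.434 CPM in WT libraries and was called in no comparison. Hdc, the enzyme that makes histamine, averaged 3.85 CPM in Ric, 3.61 CPM in deltaIcre and 1.55 CPM in WT libraries. It rose against WT in both deficient groups (edgeR adjusted p = 0.00768 for Ric and 0.022 for deltaIcre). Of 8 eosinophil and neutrophil markers 6 are in the table, with a summed level of at most 0.328 CPM in any library, and Epx and Prg2 were at 0 in Ric libraries. Of the 8 markers found of NK, NKT, CD8 and gamma delta T cells, Cd8b1 and Zbtb16 rose in Ric over deltaIcre, and none fell. Zbtb16, the defining factor of NKT cells, had 72 reads in Ric, 12 in deltaIcre and 0 in WT libraries. Klrb1c, a lectin receptor of NK and NKT cells, had 76 reads in Ric, 74 in deltaIcre and 263 in WT libraries and was called in no comparison, nor was Trdc, the delta chain constant gene of the T cell receptor, with 585 reads in Ric, 609 in deltaIcre and 739 in WT libraries. Tcrg-C1, a gamma chain constant gene, had 2262 reads in Ric, 1343 in deltaIcre and 253 in WT libraries. Klrd1, another lectin receptor, had 150, 88 and 3 reads in that order. Each rose over WT in Ric (edgeR adjusted p = 1.31e-06 and 6.31e-05) and in deltaIcre (edgeR adjusted p = 1.52e-05 and 0.000308). Zbtb16 was also called higher than WT in both deficient groups and Cd8b1 in Ric, while Nkg7 and Cd8a were called in no comparison. Zbtb16 passed the low-count filter only through the Ric libraries, with 11 to 25 reads each, so its calls are given as a description. Its deltaIcre libraries held 0 to 5 reads each and overlapped the WT libraries, all at 0. The 8 markers summed to 89.5 to 132 CPM in Ric, 41.8 to 146 CPM in deltaIcre and 53.6 to 62.0 CPM in WT libraries. Nkg7 had the most reads of them in each group, and the highest deltaIcre library held 2467 of the 3274 Nkg7 reads of deltaIcre. The 10 myeloid and dendritic cell markers summed to 63.8 to 82.3 CPM in Ric, 24.7 to 52.8 CPM in deltaIcre and 46.7 to 59.6 CPM in WT libraries. The 8 B cell markers summed to 774 to 941 CPM in Ric, 671 to 833 CPM in deltaIcre and 1262 to 1489 CPM in WT libraries. The part of such cells in the Il4 and Il5 reads was not tested.

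Gata3, at chr2:9857078-9890034 on the minus strand, was lowest in cells that lacked Foxp3 alone. It stood at 247, 226, 249 and 266 CPM in Ric libraries 2, 3, 4 and 5. The level was 216, 204, 198 and 210.5 CPM in deltaIcre libraries 1, 3, 4 and 5, and 276, 277, 306 and 267 CPM in WT libraries 1, 3, 4 and 5. No groups overlapped, although the highest Ric library and the lowest WT library lay close together. Gata3 fell in deltaIcre against WT libraries, with a log2 fold change of -0.44 and a standard error of 0.07 (edgeR adjusted p = 0.000483), and this call held under every alternative tried. It rose in Ric over deltaIcre libraries, with a log2 fold change of 0.25 and a standard error of 0.07 (edgeR adjusted p = 0.0191). That second call ended with the replicate number as a block (adjusted p = 0.0563, edgeR), without deltaIcre library 4 (adjusted p = 0.0554) and without Ric library 5 (adjusted p = 0.0599). In Ric against WT libraries the log2 fold change was -0.19, with a 95% interval of -0.34 to -0.04 (edgeR adjusted p = 0.0559). Exons of Gata3 overlap those of 9230102O04Rik on the same strand and of Gm13256 on the opposite strand. Reads there could have been set aside as ambiguous and so be missing from the Gata3 counts. The genes whose log2 CPM followed Gata3 most closely over the 12 libraries, among 8028 genes, were Apobec3, Rnf122 and Epcam, each with a Pearson r of 0.94. Epcam averaged 12.4 CPM in Ric, 3.27 CPM in deltaIcre and 25.6 CPM in WT libraries.

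Maf, at chr8:115682942-115707794 on the minus strand, stood at 59.9, 66.5, 66.2 and 61.9 CPM in Ric libraries. The level was 70.2, 60.02, 88.0 and 77.2 CPM in deltaIcre libraries and 49.4, 51.3, 64.6 and 62.3 CPM in WT libraries. The deltaIcre and WT libraries overlapped, as did the Ric libraries with each. Maf rose in deltaIcre over WT by 0.37 on the log2 scale, with a standard error of 0.12 (edgeR adjusted p = 0.0474). The call sat at the threshold: it ended under 5 alternative settings and in 9 of 12 fits that left out 1 library. In Ric over deltaIcre the log2 fold change was -0.22, with a 95% interval of -0.47 to 0.04 (edgeR adjusted p = 0.187), and in Ric over WT it was 0.16, with an interval of -0.09 to 0.41 (edgeR adjusted p = 0.319). Pou2af1, Aebp2 and Stk39 had the closest patterns, with Pearson r of 0.91, 0.90 and 0.84 over the 12 libraries.

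Nfil3, at chr13:52967209-52981073 on the minus strand, spread more widely between the deltaIcre libraries, relative to its level, than Gata3, Maf, Stat6 or Il4ra did. It stood at 60.7, 53.1, 61.1 and 74.6 CPM in Ric libraries 2, 3, 4 and 5. It stood at 22.4, 125, 31.1 and 52.4 CPM in deltaIcre libraries 1, 3, 4 and 5, and at 28.2, 54.2, 44.1 and 60.2 CPM in WT libraries 1, 3, 4 and 5. deltaIcre 3 was the highest of all libraries and deltaIcre 1 the lowest, and all 3 groups overlapped. The log2 fold change was 0.11 in Ric over deltaIcre, with a 95% interval of -0.92 to 1.14 (edgeR adjusted p = 0.877), and 0.30 in deltaIcre over WT, with an interval of -0.73 to 1.34 (edgeR adjusted p = 0.751). Without deltaIcre library 3 the first became 0.82 (edgeR adjusted p = 0.0456) and the second -0.40. In Ric over WT it was 0.42 (95% interval -0.61 to 1.45, edgeR adjusted p = 0.524).

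Bcl10, Rgs2 and Trib1 followed Nfil3 most closely, each with a Pearson r of 0.94 or 0.95 over the 12 libraries. Rgs2, which encodes a regulator of G-protein signalling, had 232, 191, 235 and 271 CPM in Ric libraries 2, 3, 4 and 5, 96.6, 321, 121 and 189 CPM in deltaIcre libraries 1, 3, 4 and 5, and 80.7, 220, 155 and 206 CPM in WT libraries 1, 3, 4 and 5. Its order inside the Ric and the deltaIcre group was that of Nfil3, and in WT library 1 was the lowest for both genes.

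**Figure D4:**
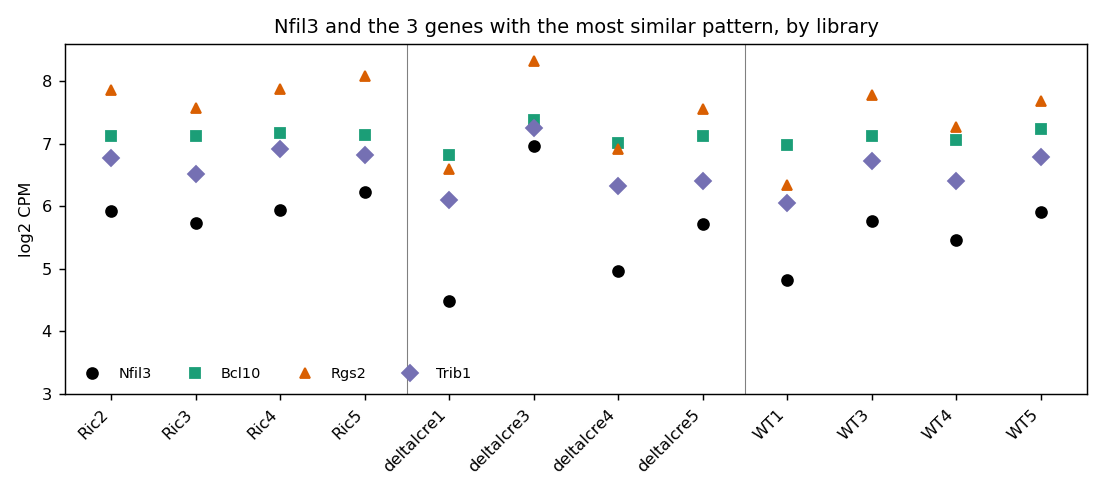
Log2 CPM (vertical axis) of Nfil3 and of the 3 genes with the most similar pattern, Bcl10, Rgs2 and Trib1, in each of the 12 libraries (horizontal axis, Ric, deltaIcre, WT). All 4 genes peak in deltaIcre 3, and they are low in deltaIcre 1 and WT 1.

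Il4ra and Stat6, the receiving side of the pathway, were high in every library. Il4ra, at chr7:125552120-125579474 on the plus strand, stood at 560.3, 619.9, 462 and 499.99 CPM in Ric libraries 2, 3, 4 and 5. The level was 576, 489.6, 461 and 432 CPM in deltaIcre libraries 1, 3, 4 and 5, and 497, 447, 432 and 457 CPM in WT libraries 1, 3, 4 and 5. Its groups overlapped, with log2 fold changes of 0.13 in Ric over deltaIcre (95% interval -0.09 to 0.35, edgeR adjusted p = 0.365), 0.10 in deltaIcre over WT (-0.12 to 0.31, edgeR adjusted p = 0.625) and 0.23 in Ric over WT (0.01 to 0.44, edgeR adjusted p = 0.103). Il4ra passed the threshold once trends in length and GC content were removed, with 0.29 in Ric over deltaIcre (edgeR adjusted p = 0.0291) and 0.31 in Ric over WT (edgeR adjusted p = 0.0151).

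Stat6, at chr10:127642986-127660957 on the plus strand, stood at 674, 711, 667 and 653 CPM in Ric libraries. The level was 734, 672, 616 and 679 CPM in deltaIcre libraries and 629.9, 674, 588 and 668 CPM in WT libraries. Its groups overlapped, and its intervals were narrow: the 95% interval of Ric over deltaIcre ran from -0.15 to 0.16 on the log2 scale (log2 fold change 0.00, edgeR adjusted p = 0.985), that of deltaIcre over WT from -0.08 to 0.23 (0.08, edgeR adjusted p = 0.576) and that of Ric over WT from -0.08 to 0.24 (0.08, edgeR adjusted p = 0.429). Exons of Stat6 overlap those of Nab2 on the opposite strand. The closest patterns over the 12 libraries were looser for these genes, with a Pearson r of 0.85 for Bop1, 0.80 for Map2k1 and 0.80 for Man1b1 with Stat6, and of 0.83 for Anapc2, 0.83 for Galnt11 and 0.81 for Gga2 with Il4ra. Per kilobase of exon, Stat6 was the most abundant of the 8 in each group, at 154 CPM per kb in Ric, 153 in deltaIcre and 145 in WT libraries, followed by Il4ra at 89.2 in Ric, 81.6 in deltaIcre and 76.4 in WT, and by Gata3 at 62.1 in Ric, 52.1 in deltaIcre and 70.8 in WT. Nfil3 stood at 30.8 CPM per kb in Ric, 28.5 in deltaIcre and 23.0 in WT, and Maf at 7.72 in Ric, 8.96 in deltaIcre and 6.91 in WT. Il4 reached 7.70 CPM per kb in Ric, the level of Maf there, against 1.06 in deltaIcre and 0.747 in WT, and Il5 stayed at 0.328 CPM per kb in Ric, 0.0511 in deltaIcre and 0 in WT.

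Genes around the 8 members were read in 4 lists. Over all tested genes, 13.9% rose and 13.3% fell in Ric over deltaIcre, 6.99% rose and 6.74% fell in deltaIcre over WT, and 15.8% rose and 16.8% fell in Ric over WT. Of 14 tested genes of IL-4 and IL-13 receptor signalling, 1 was higher and 3 lower in Ric over deltaIcre, 2 were higher and 3 lower in deltaIcre over WT, and 2 were higher and 8 lower in Ric over WT. The medians of their log2 fold changes were -0.16, 0.00 and -0.30 in that order of comparisons. Cish, a feedback inhibitor of cytokine receptors, averaged 139 ± 9.30 CPM in Ric, 112 ± 15.3 CPM in deltaIcre and 220 ± 19.2 CPM in WT libraries. It fell in deltaIcre against WT (log2 fold change -0.97, edgeR adjusted p = 5.91e-06). Its call in Ric over deltaIcre (0.31, adjusted p = 0.0294 by edgeR) ended when the fit held only these groups and when deltaIcre 4, deltaIcre 5, Ric 3 or Ric 5 was left out. Socs1, another feedback inhibitor, averaged 119 ± 20.7 CPM in deltaIcre and 213 ± 26.5 CPM in WT libraries (-0.84, edgeR adjusted p = 0.000102), and Socs5 15.1 ± 5.07 CPM in deltaIcre and 32.3 ± 2.25 CPM in WT libraries (-1.09, edgeR adjusted p = 0.00101). Jak3, the kinase bound to the common gamma chain, averaged 322 ± 14.6 CPM in Ric, 442 ± 60.0 CPM in deltaIcre and 493 ± 27.7 CPM in WT libraries. It fell in Ric against deltaIcre (-0.46, edgeR adjusted p = 0.00258). Jak2 rose in deltaIcre over WT (0.37, edgeR adjusted p = 0.00352). The phosphatase genes Inpp5d and Ptpn11 fell in Ric against deltaIcre, by 0.35 and 0.55 on the log2 scale (edgeR adjusted p = 0.00498 and 0.0094), and the call of Inpp5d ended once length and GC trends were taken out. Socs3 rose in Ric over WT, at 425 ± 17.6 CPM in Ric and 293 ± 34.3 CPM in WT libraries (0.54, edgeR adjusted p = 0.00191).

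Of 31 tested regulators of Th2 transcription and of the cytokine locus, 6 rose and 13 fell in Ric over deltaIcre, 7 rose and 4 fell in deltaIcre over WT, and 9 rose and 10 fell in Ric over WT. The medians of their log2 fold changes were -0.13, 0.09 and 0.17 in that order of comparisons. Once length and GC trends were taken out, 7 rose and 7 fell in Ric over deltaIcre, and of the 13 lower calls 6 remained. Pparg, a lipid-sensing nuclear receptor that Th2 cells use, averaged 17.9 ± 5.90 CPM in Ric and 1.37 ± 0.565 CPM in deltaIcre libraries (3.72, edgeR adjusted p = 2.94e-06). Zbtb32, a partner that restrains GATA-3, averaged 68.0 ± 12.5 CPM in Ric, 20.2 ± 2.72 CPM in deltaIcre and 8.91 ± 2.17 CPM in WT libraries. It rose in Ric over deltaIcre (1.75, edgeR adjusted p = 1.31e-05). Bcl6, a repressor of the Th2 programme, averaged 14.5 ± 0.859 CPM in Ric, 47.8 ± 10.6 CPM in deltaIcre and 43.8 ± 4.37 CPM in WT libraries. It fell in Ric against deltaIcre (-1.72, edgeR adjusted p = 2.69e-06). Nfatc2 also fell there, at 103 ± 10.97 CPM in Ric and 173 ± 23.6 CPM in deltaIcre libraries (-0.75, edgeR adjusted p = 0.0002). In deltaIcre over WT, Tcf7, a factor of resting T cells that raises Gata3, averaged 2907 ± 198 CPM in deltaIcre and 1351 ± 50.03 CPM in WT libraries (1.11, edgeR adjusted p = 3.5e-08). Sox4, a repressor of GATA-3 function, averaged 66.1 ± 11.2 CPM in deltaIcre and 23.6 ± 3.76 CPM in WT libraries (1.48, edgeR adjusted p = 2.82e-06). Ikzf1 and the chromatin organiser Satb1 rose as well in deltaIcre over WT, by 0.69 and 0.68 on the log2 scale.

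Of 17 tested Th2 effector and surface genes, 6 rose and none fell in Ric over deltaIcre, 6 rose and 6 fell in deltaIcre over WT, and 7 rose and 4 fell in Ric over WT. The medians of their log2 fold changes were 0.43, -0.50 and -0.09 in that order of comparisons. Cysltr1, a leukotriene receptor, averaged 25.7 ± 6.04 CPM in Ric, 3.51 ± 1.10 CPM in deltaIcre and 1.22 ± 0.175 CPM in WT libraries. It rose in Ric over deltaIcre (2.86, edgeR adjusted p = 1.89e-06). Il7r, the receptor chain of IL-7, averaged 581 ± 49.1 CPM in Ric, 359 ± 30.9 CPM in deltaIcre and 199 ± 13.4 CPM in WT libraries. It rose in each comparison (edgeR adjusted p = 0.000106 in Ric over deltaIcre and 5.04e-06 in deltaIcre over WT). Plac8 averaged 78.9 ± 11.1 CPM in Ric, 4.98 ± 4.67 CPM in deltaIcre and 1.43 ± 0.412 CPM in WT libraries. Its log2 fold change of 4.02 in Ric over deltaIcre (edgeR adjusted p = 0.000201) became 4.87 without deltaIcre library 3. Ccr3, an eotaxin receptor, averaged 2.85 ± 1.14 CPM in Ric, 0.176 ± 0.214 CPM in deltaIcre and 3.03 ± 1.17 CPM in WT libraries, so that Ric and WT had similar means; its log2 fold change of 3.87 in Ric over deltaIcre (edgeR adjusted p = 0.00111) became 4.86 without deltaIcre library 5. Il1rl1, the IL-33 receptor, averaged 27.2 ± 10.1 CPM in Ric, 7.98 ± 3.16 CPM in deltaIcre and 33.8 ± 3.43 CPM in WT libraries, and both fell in deltaIcre against WT (-2.08, edgeR adjusted p = 0.000264) and rose in Ric over deltaIcre (1.77, edgeR adjusted p = 0.00149). Il10, a cytokine that c-Maf activates, averaged 40.9 ± 16.5 CPM in Ric, 4.88 ± 4.34 CPM in deltaIcre and 8.55 ± 4.22 CPM in WT libraries. It rose in Ric over deltaIcre (3.08, edgeR adjusted p = 0.00575), with 3.82 without deltaIcre library 3. Ccr8 averaged 16.5 ± 6.89 CPM in Ric, 12.3 ± 5.88 CPM in deltaIcre and 74.5 ± 15.0 CPM in WT libraries. It fell in deltaIcre against WT (-2.59, edgeR adjusted p = 0.000119), as did Penk, the enkephalin precursor (-2.34, edgeR adjusted p = 0.000327).

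**Figure D5:**
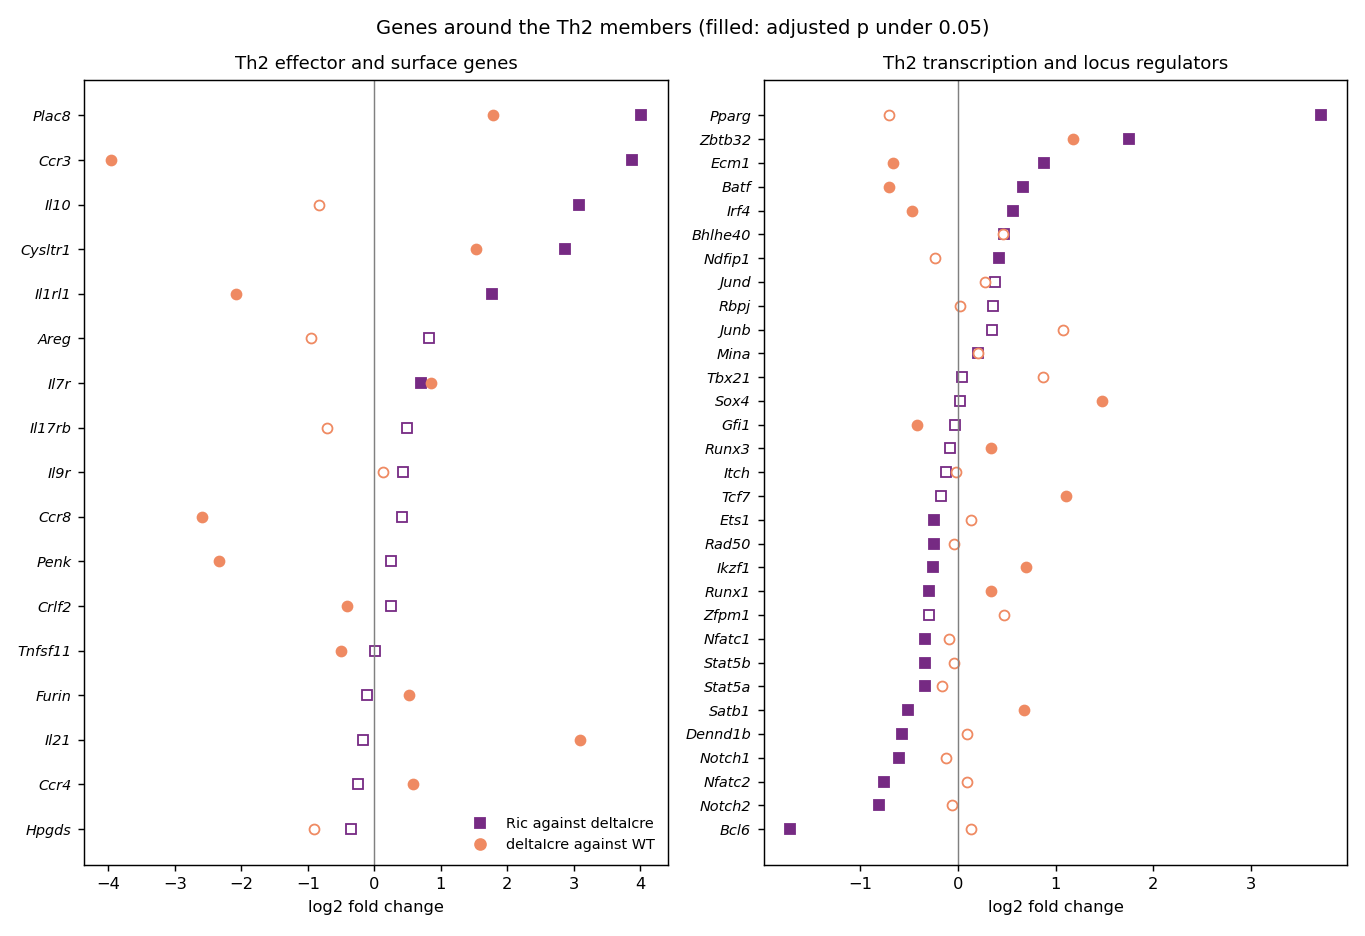
Log2 fold change (horizontal axis) of the tested Th2 effector and surface genes (left) and of the regulators of Th2 transcription (right), in Ric over deltaIcre (squares) and deltaIcre over WT (circles), filled where the adjusted p was under 0.05. In Ric over deltaIcre, Plac8 at 4.02 lies furthest to the right of the left panel, and Pparg at 3.72 and Bcl6 at -1.72 mark the ends of the right panel.

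Of 15 tested genes of the clock and of D-box binding, a family of sites that NFIL3 shares, none rose and 2 fell in Ric over deltaIcre, 5 rose and none fell in deltaIcre over WT, and 5 rose and 3 fell in Ric over WT. The medians of their log2 fold changes were -0.29, 0.15 and 0.16 in that order of comparisons. Nr1d1, which encodes the repressor REV-ERB alpha, averaged 37.1 ± 5.86 CPM in Ric, 43.2 ± 15.4 CPM in deltaIcre and 11.7 ± 1.16 CPM in WT libraries. It rose in deltaIcre over WT (1.88, edgeR adjusted p = 1.23e-05). Hlf, a D-box activator, averaged 3.67 ± 0.513 CPM in Ric, 5.85 ± 0.807 CPM in deltaIcre and 1.09 ± 0.526 CPM in WT libraries, and Cry1, a core clock repressor, 139 ± 7.07 CPM in Ric, 146 ± 12.1 CPM in deltaIcre and 97.8 ± 1.89 CPM in WT libraries. Cry2 fell in Ric against deltaIcre (-0.60, edgeR adjusted p = 0.00681).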

How the data were processed

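RNA was sequenced from 12 libraries of sorted splenic Treg cells (SMART-Seq v4 cDNA; the library kit is named KAPA Hyper Prep in one label text and KAPA mRNA-Seq in another). The deposited values are raw read counts per gene; per the submitters' processing notes and the labels, the authors aligned reads to mm10 with STAR 2.5.1b and counted them with HTSeq. The version of HTSeq, the annotation release and the use of strand in counting were not given in the sources used here. Summary lines of the counter, 34.7 to 40.5% of reads, were left out of library sizes.

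Counts were tested with edgeR 4.0.16 in R 4.3.3 (filterByExpr with a minimum count of 10, TMM, robust quasi-likelihood fit, all 12 libraries, no covariate), with Benjamini-Hochberg adjustment over 13196 genes. Il5 and Il13 were compared by exact two-sided permutation of mean CPM, and a floor of 3 reads per group was used for 0. Log2 CPM for likeness used a prior count of 2, over genes averaging 10 CPM or more. Alternatives used DESeq2 1.42.0, limma 3.58.1, other scalings and filters, a replicate block, offsets for length and GC content, and leaving out libraries. The code was tested on simulated data. By symbol or synonym, 97.5% of table genes matched GENCODE M21.

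Members and lists were chosen with earlier results of these data known. Named genes are the members, Foxp3, Rictor, up to 4 called genes with the smallest adjusted p per list and comparison, and the 3 genes most like each member. Kif3a, Sept8, Irf1, Rad50, Kit, Cpa3, Hdc, Zbtb16, Cd8b1, Klrb1c, Trdc, Tcrg-C1, Klrd1, Nkg7, Cd8a, Il10 and Il1rl1 in Ric over deltaIcre were named after their values were seen. So were the T cell markers Cd3d, Cd3g, Cd4, Trac, Cd28, Il2ra and Ikzf2. One gene that this rule names is not reported here.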

Additional observations from a re-analysis of the deposited data

Results flagged for a closer look

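One library stood apart from the rest of its group for Il13 in Ric library 4, at 0.0937 CPM from 2 reads, while the other 3 Ric libraries had no read. Its gap to the nearest library exceeded Dixon's 95% critical value for 4 libraries. With the other 3 libraries at 0, any read would have exceeded it, so the value says nothing more of that library. It was 1 of 21 groups of 4 libraries examined so, and chance sets about 1 in 20 apart.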

How the results depend on the processing

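The rises of Il4 in Ric over deltaIcre (2.43 to 3.21) and in Ric over WT (3.04 to 3.65) kept their direction and their call under every alternative that tested it; the stricter low-count filter left Il4 out. The fall of Gata3 in deltaIcre against WT kept its call under every alternative (-0.47 to -0.40). The other calls were less firm, and depth limits Il5 and Il13.

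In deltaIcre against WT, 1 member was called under upper quartile scaling, the stricter filter, limma-voom, a fit restricted to the compared groups, and removal of length and GC trends. There Maf had log2 fold changes of 0.36, 0.36, 0.36, 0.37 and 0.34. Leaving out 1 library at a time gave 1 to 2 called members, 0.28 to 0.46 for Maf, -0.40 to 0.57 for Nfil3 and 7 to 11 called regulators of Th2 transcription. Without both deltaIcre 1 and 3, Nfil3 was at -0.16 and Il4ra at -0.034.

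In Ric against deltaIcre, 1 member was called under the stricter filter. DESeq2 and limma-voom each called 4 clock genes. A fit of only the groups compared called 2382 genes, against 3585 in the fit of all 3 groups. With length and GC trends removed Il4ra was at 0.29. Without both deltaIcre 1 and 3, 7 receptor signalling genes were called and Maf was at -0.38. Leaving out 1 library at a time gave 2153 to 4430 called genes, 1 to 4 called members, 3 to 7 receptor signalling genes, 2 to 5 clock genes, 0.22 to 0.31 for Gata3, -0.30 to -0.12 for Maf, -0.15 to 0.82 for Nfil3, -0.039 to 0.045 for Stat6, and 0.229 to 0.577 CPM for the difference in Il5.

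In Ric against WT, 2 members were called with no low-count filter, where Il5 entered, and under DESeq2. A fit of only the groups compared, removal of length and GC trends, that removal with the replicate block, and leaving out both deltaIcre 1 and 3 each called 3. Gata3 passed at -0.20 under the stricter filter, -0.19 in the fit of only the groups compared and -0.19 without both libraries. Il4ra passed at 0.22 in the fit of only the groups compared, 0.31 with trends removed, 0.30 with trends removed and the block, and 0.23 without both libraries. Maf passed at 0.33 with trends removed and at 0.32 with the block as well. Leaving out 1 library at a time gave 1 to 2 called members, -0.22 to -0.14 for Gata3 and a difference in Il5 of 0.307 to 0.655 CPM; with 3 WT libraries the exact permutation p of Il5 was 0.0571.

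No label states whether replicate numbers shared between groups pair the libraries. Deviations from the group means correlated at 0.03 to 0.20 between same-numbered WT and deltaIcre libraries, under 0.1 in library 4. Between WT and deltaIcre libraries of other numbers they correlated at -0.26 to 0.19. These values do not settle whether the libraries are pairs, and the main fit held no replicate block. With the replicate block, Gata3 in Ric against deltaIcre was at 0.26 and 1 member was called. With the block and trends removed, that comparison called 2069 genes and 11 regulators of Th2 transcription, and Nfil3 was at -0.026. The cause of these shifts was not tested.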
